A study of Schizosaccharomyces pombe with 21 samples.

Results

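The comparison set *Schizosaccharomyces pombe* (fission yeast) *ecl123*Δ cells starved of phosphate for 24 h against the same strain at 0 h. Both groups carried deletions of *ecl1*, *ecl2* and *ecl3*, small related genes tied to chronological lifespan, each replaced by a drug-resistance cassette (h- ecl1Δ::hygMX ecl2Δ::natMX ecl3Δ::kanMX, 1 strain). The study lists mutant alleles of *leu1*, *ura4*, *his3* and *ade6* in all its strains, so both groups shared these too. The 0 h cells were in log phase in YES, a yeast extract medium. The 24 h cells were in ePMGT(-PO4), which is a defined medium with glutamate and thiamine but without phosphate, so loss of phosphate and change of medium cannot be told apart between the groups. There were 3 libraries of poly(A)+ RNA in each group, 6 of the 21 in the series, and wild-type cells are not part of these libraries. The tables give 1 value per gene and time, the authors' mean normalised count over the 3 libraries, with no column per library, so no test between the groups was run and no p-value is given. Genes with a mean of at least 100 at 0 h or at 24 h were taken, which left 5889 of the 6988 genes listed, of which 4924 are protein-coding and 898 are long non-coding RNAs. A gene is called higher or lower here when its means differed at least 2-fold.

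Phosphate starvation in this yeast is met by the PHO regulon, in which the transcription factor Pho7 activates *pho1*, a cell surface acid phosphatase, *pho84*, an inorganic phosphate transporter, and *tgp1*, a glycerophosphodiester transporter. When phosphate is plentiful, transcription of a long non-coding RNA through each promoter represses the gene downstream. Cells that stay starved stop dividing and become quiescent, a state in which yeasts cut back ribosome production and recycle their contents through autophagy and the vacuole.

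At 24 h, 1433 genes (24.3%) were at least 2-fold higher than at 0 h and 1088 (18.5%) were at least 2-fold lower. Among protein-coding genes the balance was the other way, with 853 higher (17.3%) and 1019 lower (20.7%). Counts for lists of protein-coding genes below are to be read beside these shares. The median log2 ratio of all protein-coding genes was -0.20. When ratios were centred on that median gene, 1031 protein-coding genes were higher and 715 lower. When both times were given equal summed means, 1095 were higher and 623 lower. These scalings raise every log2 ratio by 0.20 and 0.28, so a log2 ratio between -0.28 and 0 has no fixed direction. The increases reached further than the decreases: 335 protein-coding genes were more than 4-fold higher and 110 more than 4-fold lower, and 75 against 2 passed 16-fold.

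**Figure D1:**
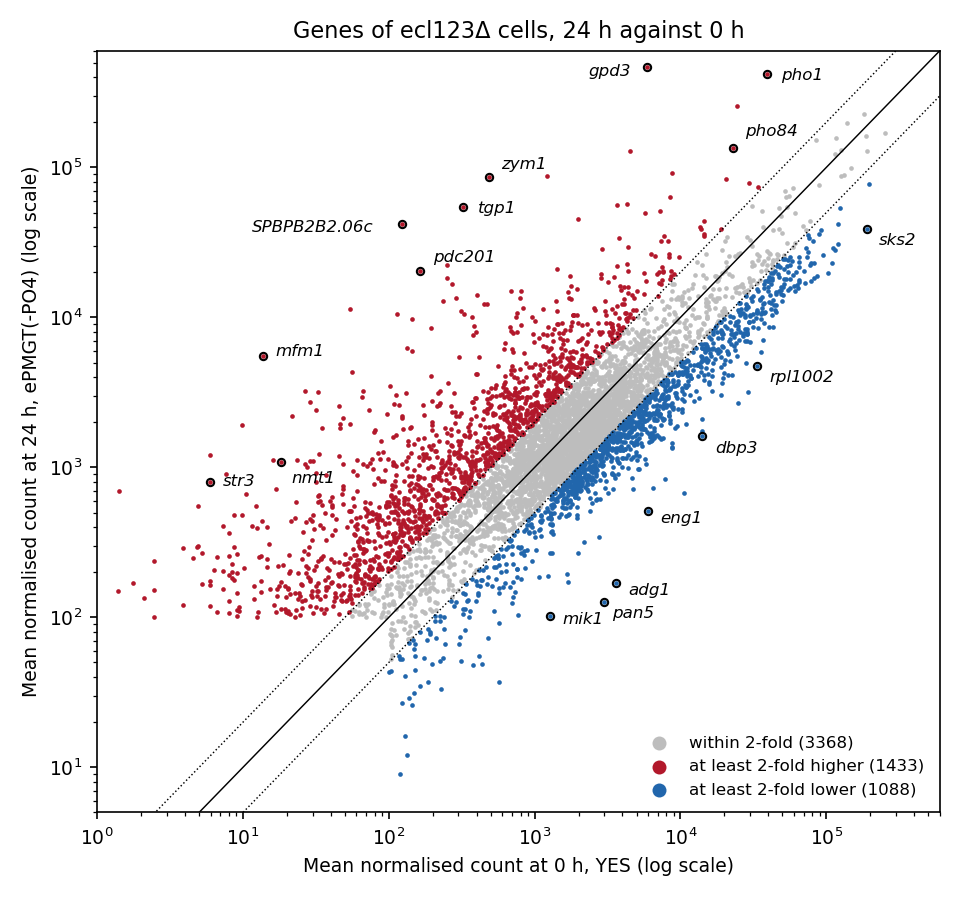
Mean normalised count of each gene at 0 h (x axis, log scale) and at 24 h (y axis, log scale). Red points are the 1433 genes at least 2-fold higher, blue points the 1088 at least 2-fold lower and grey points the rest; dotted lines mark 2-fold, and 2 genes listed at 0 at 0 h are not drawn. The red cloud reaches far above the diagonal at low and high counts, with *gpd3* and *pho1* at the top, whereas few blue points lie far below the dotted line.

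The transcriptome at 24 h was also more concentrated. The 10 genes with the largest means held 6.41% of the summed means at 0 h and 10.5% at 24 h. *gpd3*, a glyceraldehyde-3-phosphate dehydrogenase, went from 0.0218% to 2.08% of the sum and *pho1* from 0.144% to 1.89%. The aldolase gene *fba1*, the most abundant at 0 h, held 0.925% at 0 h and 0.755% at 24 h. Ribosomal protein genes together took 21.2% of the sum at 0 h and 10.8% at 24 h. A bulk measurement of this kind cannot tell fewer cells expressing a gene from less RNA per cell.

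For low means the 3 library values behind a mean could be rebuilt, because each mean is a sum of whole reads divided by known steps (libraries are called a, b and c by depth, since their replicate numbers are not known). The 0 h libraries held about 25750000, 25890000 and 26130000 counted reads and the 24 h libraries about 18010000, 22200000 and 24070000. The coefficient of variation had a median of 8.67% at 0 h (1338 genes) and 16.7% at 24 h (1896 genes). The 2 medians are not comparable, since 591 of the 0 h genes and 169 of the 24 h genes could be rebuilt only by taking the libraries as within 2-fold of each other. Where both groups were rebuilt (1367 genes), the libraries of the groups did not overlap for 634 of the 644 genes called higher (98.4%) and for all 110 called lower (100%). Over all 1367, the 24 h libraries lay above those of 0 h for 62.5% and below for 17.1%. The groups also did not overlap for 345 of the 613 called neither (56.3%), so non-overlap alone is common in this comparison. Both the 2-fold call and the 2-fold limit used in rebuilding favour non-overlap, so these counts are not separate support for the calls. The standard error of the log2 ratio, over 896 rebuilt genes with both means at 100 or more, had a median of 0.17. These genes are the weakly expressed ones, and the values describe their spread only.

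The strain check gave unequal answers for the deleted genes. *ecl3* was listed at 0 at 0 h and at a mean of 3.10 at 24 h (libraries 0, 0 and 9.31). *ecl1* kept a mean of 4095 at 0 h and 1974 at 24 h, and *ecl2* had 2326 and 2213. The counts are summed over exons of the annotated genes, which can include transcribed sequence left outside a cassette. Whether the *ecl1* and *ecl2* reads come from such sequence was not tested.

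Pho7 is known to bind a short site in its target promoters, and its matches near phosphate genes are shown first. Promoters were taken as 250 bases before to 50 after the annotated transcript start (RefSeq, ASM294v3, each gene's own annotation there). Among 19 genes of phosphate uptake, release and storage with a mean of at least 100, 21.1% had a match on either strand, beside 1.91% of all 4924 promoters. The 4 matches are printed along the gene's strand with the site in capitals.
tgp1: ctttttcctTCGGACATTCAAatcagtaag
pho1: tagttttatTCGGAAATTAAAaacaagttt
pho842: tacattgagTCGGTCTTTGAAaatcaactg
SPBPB2B2.06c: aaagttgctTCGCAACTTCAAttcattact
The sites end 180, 143, 90 and 85 bases before the start in the order shown. All 4 genes were at least 2-fold higher at 24 h, with a median log2 ratio of 5.42. The 15 genes of the list without a match had a median of 1.12, with 9 higher and 2 lower. The PHO regulon gene *pho84* (2.56) is among those without a match. The study describes a Pho7 binding site mapped farther upstream of that gene than this window reaches. The contrast is therefore between genes with and without a match in the window, not with and without a Pho7 site. The motif itself was located in the *pho1* and *tgp1* promoters, by the study's account, so matches in these genes were fixed in advance. The share of 21.1% and the difference in medians are thus not separate support for a role of Pho7. For the printed *tgp1* and *pho1* sites the study describes binding by the DNA-binding domain of Pho7 and loss of promoter activity on mutation. It describes no such assay of the *pho842* and SPBPB2B2.06c matches. A match by itself is a description of the letters and not evidence of binding. The motif is also present in 2.93% of promoters of genes called higher, 1.86% of those called lower and 1.64% of the rest.

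All 3 genes of the PHO regulon were higher at 24 h. *tgp1* had 319, 316 and 334 normalised counts in the 0 h libraries and a mean of 54857 at 24 h (log2 ratio 7.41). *pho1* went from a mean of 39182 to 422772 (3.43) and *pho84* from 22913 to 134784 (2.56). The order of abundance therefore differed from the order of change, and the transporter *tgp1*, the rarest of the 3 at 0 h, showed the widest ratio. Of the regulatory RNAs upstream, *nc-tgp1* was higher (646 to 2178, 1.75). *nc-pho1* stood at 164, 141 and 179 in the 0 h libraries and 413, 269 and 173 at 24 h, which overlap (mean log2 ratio 0.82). *prt2*, upstream of *pho84*, had means of 864 and 903. With the 0 h libraries in common, the median log2 ratio of these 3 RNAs was -1.43 at 4 h, when all 3 were at least 2-fold lower, against 0.82 at 24 h. Beside these, *pho7* itself had a log2 ratio of -0.63.

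Across the wider phosphate list, 13 of 19 genes were higher and 2 lower, beside 17.3% and 20.7% of protein-coding genes. The largest ratio was that of SPBPB2B2.06c (8.43). It had 112, 124 and 132 normalised counts in the 0 h libraries and a mean of 42193 at 24 h. RefSeq annotates it as a phosphoprotein phosphatase, whereas the study describes its product as a predicted extracellular nucleotidase. Its likewise annotated relative SPAC1039.02, also a predicted extracellular nucleotidase gene in the study, went from 4284 to 57104 (3.74). Other phosphate transporters diverged. *pho841* (7199 to 51320, 2.83) and *pho842* (1718 to 13394, 2.96) were higher, whereas *pho843* was lower (2803 to 1131, -1.31). Intracellular stores are handled by the vacuolar transporter chaperone complex, which makes polyphosphate, and its genes *nrf1* (1.98), *vtc4* (1.73) and *vtc2* (1.09) were all higher. The vacuolar alkaline phosphatase gene *pho8* (1.12) and the glycerophosphodiesterase gene *gde1* (1.43) were higher too. Phospholipase genes split, with *plb5* at 318, 299 and 232 in the 0 h libraries and a mean of 1041 at 24 h (1.88), and *plb1*, the most abundant, going from 110943 to 29220 (-1.92). *pqr1*, a ubiquitin ligase gene, had a log2 ratio of 0.65.

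**Figure D2:**
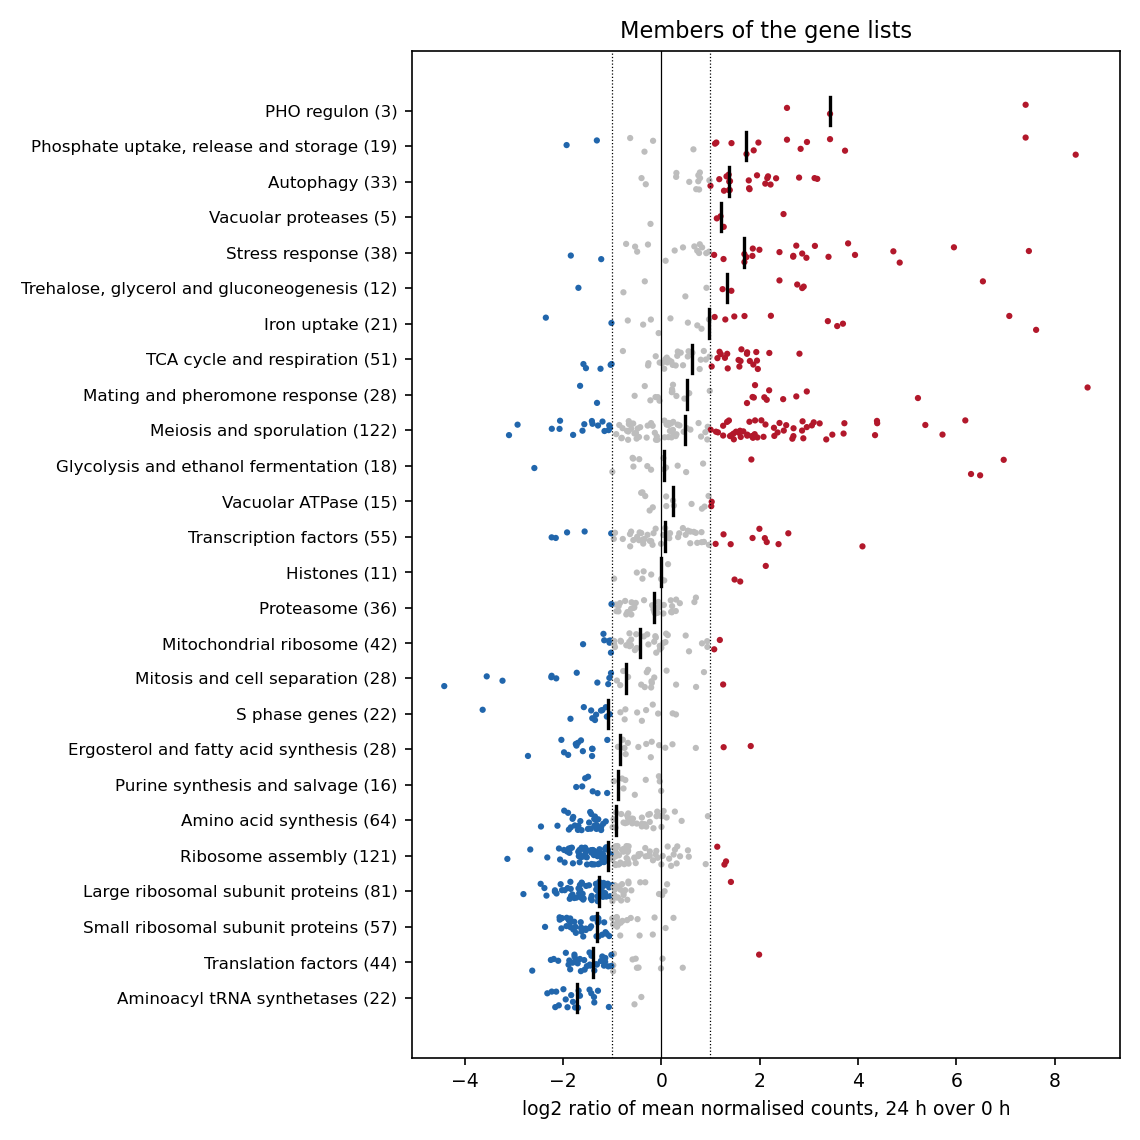
log2 ratio of mean normalised counts, 24 h over 0 h, for each member of 26 gene lists (x axis), 1 row per list with the number of genes plotted in brackets. Red points are at least 2-fold higher, blue at least 2-fold lower, grey neither, and the black bar is the list median; the phosphate, autophagy and stress lists lie mostly to the right of 0 and the translation lists mostly to the left.

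Autophagy genes were higher as a group. Of 33, 21 were at least 2-fold higher (63.6%) and none was lower, with a median log2 ratio of 1.37. Over all protein-coding genes 17.3% were higher and 20.7% lower. The largest ratios belonged to *fun14*, whose product sits in the outer mitochondrial membrane (224, 134 and 161 in the 0 h libraries, mean 1560 at 24 h, 3.17), and *atg43*, a mitophagy receptor gene (1707 to 14806, 3.12). Genes of the conjugation system that builds the autophagosome membrane followed, with *atg12* at 182, 181 and 241 at 0 h and 1403 at 24 h (2.80). *atg4*, which encodes the protease that processes Atg8, stood at 2.16 and *atg8* itself at 1.95. *atg101*, of the initiating kinase complex, was at 2.22 and the kinase gene *atg1* at 1.80. *epr1*, a receptor for endoplasmic reticulum autophagy, was at 1.79. The exceptions with the lowest ratios were *atg11* (-0.40) and *atg2* (-0.31). Among 5 vacuolar protease genes 4 were higher, led by the serine protease gene *isp6* (1838 to 10298, 2.49) and including carboxypeptidase Y, *cpy1* (33945 to 74257, 1.13). The vacuolar proton pump had 2 of 15 genes higher (13.3%, near the 17.3% of protein-coding genes) and a median of 0.24. The proteasome, the other main route of protein breakdown, had 0 of 36 higher and 1 lower, with a median of -0.15, which turns positive under both other scalings.

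Genes for making proteins were mostly lower. Of 138 cytosolic ribosomal protein genes, 93 were at least 2-fold lower and 1 was higher, beside 20.7% and 17.3% of protein-coding genes. The median log2 ratios were -1.26 over 81 large subunit genes and -1.31 over 57 small subunit genes. The lowest were *rpl1002* (33274 to 4768, -2.80), *rpl1603* (-2.45; 810, 876 and 879 in the 24 h libraries), *rpl402* (-2.38) and *rps2201* (36605 to 7116, -2.36). At the other end, *rpp202*, for an acidic P2 protein of the ribosomal stalk, was higher (29595 to 78982, 1.42), while its paralogue *rpp203* was lower (16553 to 4084, -2.02). Several other genes were near their 0 h mean, among them *rps3001* (0.25), *rpl4302* (0.12), *rps3002* (0.09) and *rpl102* (0.07). The 24 h values were not the lowest of the series. Against the same 0 h libraries, the median over the 138 genes was -2.52 at 4 h, when all 138 were lower, and -2.87 at 8 h. It was -1.29 at 24 h (93 lower), -1.36 at 36 h (107 lower) and -1.13 at 48 h (81 lower).

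Ribosomal protein promoters in this yeast carry the HomolD box (CAGTCACA), which stands in for a TATA element, and the HomolE box (ACCCTACC). HomolD was found, on either strand of the same window, in 65.4% of large subunit and 61.4% of small subunit promoters, 8.34% of all promoters of lower genes, 0.352% of higher genes and 2.78% overall. HomolE was found in 24.7% and 36.8% of the large and small subunit promoters and 1.67% overall. The sites of *rpl301* (-2.33) and *rps2201*, which were among the lowest, are set beside that of *rpl102*, whose means were nearly equal, to show that the box is shared. In *rps2201* the box lies on the opposite strand and its reverse complement is in capitals.
rpl301: cctaaaaagaaCAGTCACAatgtgttgaag
rps2201: gttcgtagacaTGTGACTGctttttttgag
rpl102: ctatatagaaaCAGTCACAaagatagtaga
The box ends 41, 48 and 49 bases before the start. Within the large subunit, 35 of 53 genes with HomolD were lower (median -1.26) and 20 of 28 without it (median -1.29). In the small subunit the counts were 24 of 35 (-1.40) and 14 of 22 (-1.28).

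**Figure D3:**
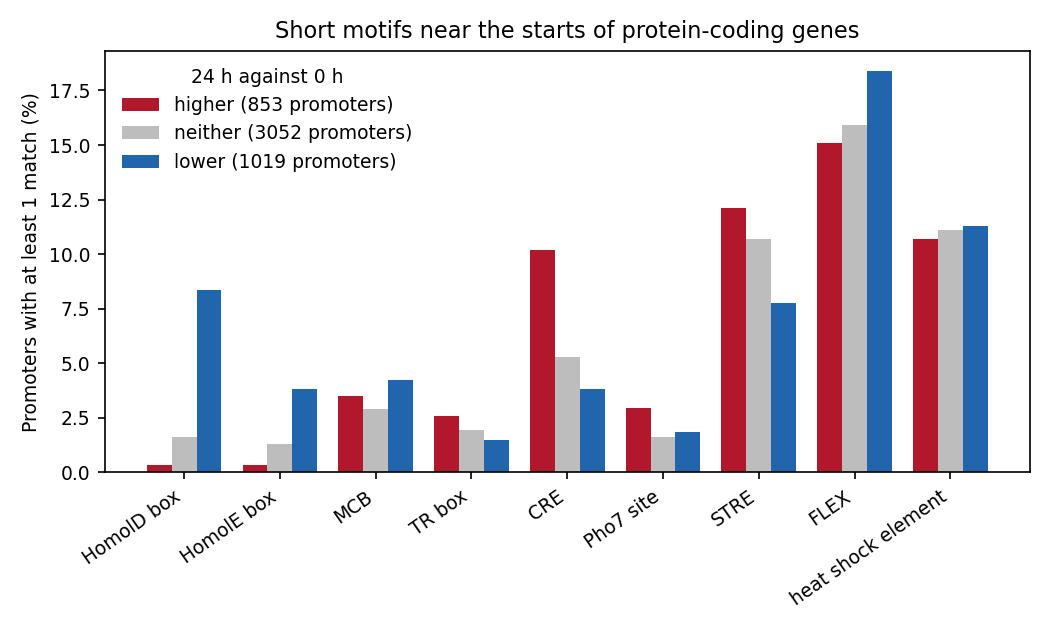
Percentage of promoters (y axis, 250 bases before to 50 after the start, either strand) with at least 1 match to each motif (x axis), for the 853 protein-coding genes at least 2-fold higher (red), the 3052 neither (grey) and the 1019 at least 2-fold lower (blue). The HomolD and HomolE bars are tallest for lower genes and the CRE bar for higher genes, while the heat shock element was about equally common in all 3 groups.

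Of 121 ribosome assembly genes 62 were lower and 3 higher (median -1.09). The RNA helicase genes *dbp3* (14129 to 1615, -3.13) and *has1* (8716 to 1376, -2.66) and the U3 snoRNP gene *utp4* (-2.32) were the lowest, and *urb2* had 601, 658 and 932 in the 24 h libraries (-2.06). The 3 higher ones were *alb1* (1.32), *slx9* (1.28) and *cgr1* (1.14). Among 22 aminoacyl tRNA synthetase genes 20 were lower and none higher (median -1.72), from *mrs1* for arginine (19668 to 3947, -2.32) to the exceptions *trs1* for threonine (-0.54) and *vrs2* for valine (-0.41). Translation factors had 33 of 44 lower and 1 higher (median -1.39). *tif213*, of initiation factor eIF2, was at -2.62, *tif301* of eIF3 at -2.24, *tif1* (eIF4A) at -2.19 and the release factor gene *sup35* went from 21776 to 5094. The elongation factor gene *tef103* (0.44) and *tif51* for eIF5A (0.02) were within 2-fold, and the eIF1A-like *tif1102* was higher (1.99) while *tif11* for eIF1A was lower (-1.63). Of 37 tRNA modification genes 15 were lower and 2 higher, the latter being *trm7*, a ribose methyltransferase gene (1533 to 9114, 2.57), and SPBC21.03c (1.68). The mitochondrial ribosome had 7 of 42 lower (16.7%, beside 20.7% of protein-coding genes) and 2 higher (median -0.43). These counts turned to 1 lower and 5 higher under both other scalings.

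RNA polymerases I and III make ribosomal and transfer RNA. Of 16 polymerase I genes 5 were lower and none higher, with the subunit genes *nuc1* (-1.98), *rpa2* (-1.95) and *rpa49* (-1.89) lowest. Of 19 polymerase III genes 5 were lower, led by *sfc2* for TFIIIA (626, 833 and 877 at 24 h, -1.58) and *rpc82* (-1.31), and 3 were higher, shares near the 20.7% and 17.3% of all protein-coding genes. Those 3 were *brf1* (677, 699 and 835 at 0 h, mean 2705 at 24 h, 1.88) and *bdp1* (583, 531 and 601 at 0 h, mean 1613), both of the initiation factor TFIIIB, and *maf1*, which encodes the repressor of polymerase III (378, 396 and 415 at 0 h, mean 1258, 1.67). A repressor and the factor it is known to act on were thus higher at the same time. Polymerase II subunits had 2 of 11 lower (18.2%, median -0.44), a share near the 20.7% of all protein-coding genes, and 0 lower under both other scalings. The cytosolic chaperonin, which folds actin and tubulin, had 7 of 8 subunit genes lower, from *cct4* (-1.60) to *cct2* and *cct7* (both -1.17), with *cct6* at -0.73, whereas its partner prefoldin had *pfd5* higher (1.75) and the other subunits between -0.17 and 0.52.

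Glycolysis as a whole was not lower, but the genes supplying some of its enzymes differed between the times. The list took 5.85% of the summed means at 0 h and 8.99% at 24 h, with 4 of 18 genes higher, 1 lower and a median of 0.05. The share higher (22.2%) was near the 17.3% of all protein-coding genes, and 5.56% were lower beside 20.7%. In 3 reactions a second gene of the same product name was higher while the main one was not. For glyceraldehyde-3-phosphate dehydrogenase, *gpd3* went from 5914 to 465515 (6.30) and *tdh1* from 148462 to 99114 (-0.58). For enolase, *eno102* had 266, 227 and 256 in the 0 h libraries and a mean of 22327 at 24 h (6.48), and *eno101* went from 139193 to 197660 (0.51). For pyruvate decarboxylase, *pdc201* had 166, 154 and 173 at 0 h and 20488 at 24 h (6.96), *pdc202* had 201, 176 and 179 at 0 h and 733, 767 and 478 at 24 h (1.83), and *pdc101* went from 189196 to 127765 (-0.57). The sources used here do not say how reads that fit several paralogues were counted, so these pairs carry that uncertainty.

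Most other glycolytic genes were close to their 0 h means. *hxk2* (-0.99) and *hxk1* (0.04) for hexokinase, *pgi1* (-0.28), *pfk1* (-0.45), *fba1* (-0.57), *tpi1* (0.10), *pgk1* (0.33), *gpm1* (0.85) and *pyk1* (0.06) were all within 2-fold. Of the alcohol dehydrogenase genes, *adh1* was at -0.21 and *adh4* was lower (8743 to 1462, -2.58). The reverse pathway stood apart, since *fbp1* for fructose-1,6-bisphosphatase, a gene of gluconeogenesis repressed by glucose, had 108, 119 and 113 at 0 h and a mean of 10535 at 24 h (6.54). The upstream non-coding transcript *fbp1-ot2* had 0, 1.05 and 3.12 at 0 h and 199, 151 and 98.7 at 24 h. Glycerol use was represented by *gld1*, glycerol dehydrogenase (118, 106 and 93.6 against 733, 768 and 658, 2.76), *dak1* (8527 to 63490, 2.90) and *dak2* (2.40), the last a pair of dihydroxyacetone kinase genes. *gpd2*, for glycerol-3-phosphate synthesis, was lower (13138 to 4087, -1.68). Of the hexose transporters *ght5* (-1.09) and *ght8* (-1.02) were lower, though not under either other scaling, and the gluconate transporter gene *ght3* was higher (46.4, 58.8 and 93.6 against 357, 366 and 223, 2.25).

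Of 51 genes of the TCA cycle and respiratory chain, 20 were higher (39.2%) and 5 lower (9.80%), with a median of 0.63. Over all protein-coding genes the shares were 17.3% and 20.7%. The higher ones included small subunits of cytochrome c oxidase, *cox7* (1230 to 8622, 2.81), *cox9* (2.20) and *cox13* (1.96), and *mdh1* for malate dehydrogenase (1.93). The 5 lower ones, which were 3 and 2 under the other scalings, included *lat1* (-1.58), *pdb1* (-1.24) and *pda1* (-1.01) of the pyruvate dehydrogenase complex and *idp1* (-1.03).

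No amino acid synthesis gene among 64 was higher and 29 were lower (median -0.92), with *aro2* for chorismate synthase (22401 to 4111, -2.45), *ser2* (-2.11), *met26* (121272 to 30884, -1.97) and *lys3* (-1.90) lowest. Purine synthesis had 7 of 16 lower and none higher (*ade1* -1.73, *ade9* -1.61). Sulfur assimilation had 5 of 12 lower, led by *sam1* for S-adenosylmethionine synthetase (35554 to 5879, -2.60), while its transcription factor gene *zip1* was higher (1.11). Of 28 lipid genes 13 were lower (median -0.83), including *fas2* (-2.03) and *fas1* (-1.98) for fatty acid synthase and *cut6* (-1.74) for acetyl-CoA carboxylase. The fatty acid desaturase gene *ole1* was higher (1.27). The C-5 sterol desaturases parted, *erg31* going from 8809 to 1346 (-2.71) and *erg32* from 1970 to 6953 (1.82). Pyrimidine synthesis and uracil salvage parted as well. *ura3* (19161 to 3638, -2.40), *ura1* (-1.98), the uracil permease gene *fur4* (-1.24) and *ura5* (-1.06) were lower, and the uracil-regulated cluster genes *urg1* (1221 to 88104, 6.17), *urg2* (4.54) and *urg3* (2.09) were higher.

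Uptake genes for other nutrients were mixed. Of 10 permeases for amino acids and peptides, 5 were higher, such as *per1* (1.66) and *isp5* (243, 243 and 183 against 535, 687 and 740, 1.55). The peptide transporter gene *ptr2* (316, 305 and 189 at 24 h, -2.88) and *cat1* for arginine and lysine (-1.65) were lower. Thiamine was present in the starvation medium, and the thiamine-repressed genes did not move together. *nmt1* had 7.39, 29.4 and 17.7 at 0 h and a mean of 1081 at 24 h (5.90), *bsu1* was at 1.08, *thi2* at 0.28, and the thiamine-repressible phosphatase gene *pho4* was lower (-2.38).

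Iron uptake genes held some of the largest ratios. Of 21, 10 were higher (47.6%) and 2 lower (9.52%), beside 17.3% and 20.7% of protein-coding genes (median 0.97). *shu1*, a heme uptake protein gene, had 6.33, 10.5 and 12.5 at 0 h and a mean of 1924 at 24 h (7.62). *str3*, annotated as a siderophore transporter gene and also known for heme import, had 4.22, 6.30 and 7.28 against 718, 859 and 826 (7.08). The reductive system of *fio1* (203, 110 and 207 at 0 h, mean 2243 at 24 h, 3.69) and *fip1* (3.39) was higher together. *rli1*, an iron-sulfur ATPase gene that also serves translation, was lower (16463 to 3236, -2.35), as was *fet4* (358, 360 and 289 against 212, 165 and 123, -1.01), though not under either other scaling, and *fep1*, the iron-sensing repressor gene, was at 0.54. The GATA site bound by Fep1 (ATCAGATAA) was in 3 of the 21 iron uptake promoters (14.3%) and 0.548% of all promoters. It lay before the start in 2 of them, *shu1* and *grx4*, and *grx4* was within 2-fold (-0.68). The site is shown for *shu1*, the iron gene with the largest ratio, where it ends 121 bases before the start.
shu1: tatcaagataATCAGATAAtttagcttaat

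Stress genes were higher with clear exceptions. Of 38, 22 were higher (57.9%) and 2 lower (5.26%), beside 17.3% and 20.7% of protein-coding genes (median 1.69). The list took 1.65% of the summed means at 0 h and 4.06% at 24 h. *zym1*, a metallothionein that binds zinc, had 493, 429 and 533 at 0 h and a mean of 86315 at 24 h (7.47). *ddr48* (269 to 16645, 5.95), the small heat shock gene *hsp16* (4501 to 129654, 4.85) and *lsd90* (4.72) followed, and the antioxidant genes *srx1* (3.80) and *pmp20* (3.12) were higher. The 2 lower ones were chaperone genes, *hsp90* (124218 to 53289, -1.22) and *mas5*, an Hsp40 partner (-1.84). Hsp70 paralogues differed, with *ssa1* at 2.40 and *ssa2* at -0.53. The CRE (TGACGT), recognised by the stress factor Atf1, was in 10.2% of promoters of higher genes, 3.83% of lower genes and 5.85% overall. It is shown for *pmp20*, where it lies on the opposite strand and ends 62 bases before the start.
pmp20: tttggtgatttgACGTCAccaaaagattcg
Within the stress list, 5 of 8 genes with a CRE were higher (median 1.79) and 17 of 30 without it (1.48). The STRE (AGGGG) was in 12.1% of higher and 7.75% of lower promoters, and the heat shock element (GAANNTTC) in 10.7% and 11.3%.

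Of 28 genes of mitosis and separation, 11 were lower and 1 higher (median -0.72). *adg1* had a mean of 3629 at 0 h and 129, 228 and 154 in the 24 h libraries (-4.41). *eng1*, the glucanase that dissolves the primary septum, went from 6002 to 513, 620 and 406 (-3.55). *adg2* (-3.23), the alpha-glucanase gene *agn1* (-2.24) and the septin organiser gene *mid2* (-2.14) were also lower. Regulators of entry into mitosis differed less, with *cdc2* at -0.29, *cdc25* at -0.21, *wee1* at -0.19 and *plo1* at 0.11. The only higher one was *spo12* (981 to 2347, 1.26).

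S phase genes had 12 of 22 lower and none higher (median -1.08). *mik1*, a kinase gene that restrains mitosis during S phase, went from 1272 to 90.8, 132 and 84.7 (-3.63). The replication licensing genes *cdt1* (754 to 222, 218 and 190, -1.85) and *cdc18* (1106 to 458, 514 and 475, -1.20) and the helicase subunit genes *mcm3* (-1.57) and *mcm4* (-1.43) were lower, whereas *mcm2* (0.30) and *mcm5* (-0.06) were within 2-fold. The MCB (ACGCGT) was in 31.8% of S phase promoters and 3.29% of all, and 3 of 7 genes with it were lower against 9 of 15 without it. Of 11 histone genes, 2 of them for variants, none was lower and 3 were higher, *hhf2* (7355 to 32079, 2.12), *hht2* (1.61) and *hht3* (1.49), while *hht1* was at -0.96 and *htb1* at -0.50. The share of histone genes higher was 27.3%, beside 17.3% of protein-coding genes. Cell wall genes had 8 of 20 lower, such as *gas4* (689, 781 and 675 at 24 h, -2.27) and *bgs3* (-1.77). *psu1* was lower (-1.54) and its relative *psu2* higher (73.9, 61.9 and 85.3 at 0 h, mean 2430 at 24 h, 5.04).

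**Figure D4:**
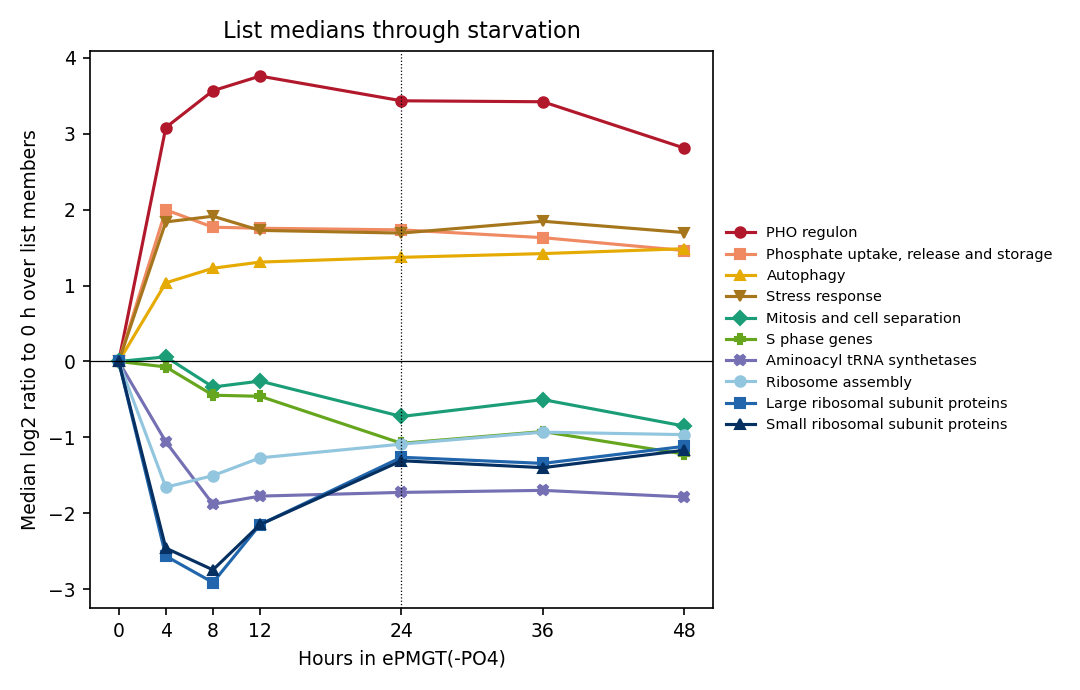
Median log2 ratio to 0 h over the members of 10 gene lists (y axis) at each hour in ePMGT(-PO4) (x axis); all points share the 3 libraries of 0 h, and the dotted line marks 24 h. Ribosomal protein medians were lowest at 8 h and nearer 0 at 24 h, whereas the S phase and cell separation medians were near 0 at 4 h and lower at 24 h.

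The time of change differed between these groups. At 4 h the S phase list had a median of -0.07 with 1 gene lower, against -1.08 with 12 lower at 24 h and -1.22 with 14 lower at 48 h. Mitosis and separation genes went from 0.06 with 0 lower at 4 h to -0.72 with 11 lower at 24 h. Ribosome assembly took the other course, at -1.65 with 108 of 121 lower at 4 h against -1.09 with 62 lower at 24 h. *adg1* itself had means of 3364 at 4 h, 1304 at 12 h, 170 at 24 h and 58.3 at 36 h. Differences between times were not tested.

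Genes of sexual differentiation were higher in part. Of 28 mating genes 12 were higher (42.9%) and 2 lower (7.14%), beside 17.3% and 20.7% of protein-coding genes (median 0.52). The strain is of mating type h-, which makes M-factor and carries the receptor for P-factor. *mfm1*, for the M-factor precursor, had 11.6, 11.5 and 17.7 at 0 h and a mean of 5538 at 24 h (8.67), *mfm3* was at 5.22 and *mfm2* at 2.75. *mam2*, the P-factor receptor gene, had 142, 146 and 135 against 862, 666 and 832 (2.48). *map3*, the M-factor receptor gene of the opposite type, had 384, 377 and 426 against 334, 343 and 342 (-0.22). *ste11*, the master regulator of differentiation (639 to 2314, 1.86), and *mei2*, the RNA-binding protein gene that starts meiosis (1426 to 11089, 2.96), were higher. The lower ones were *tht1*, for nuclear fusion (637 to 203, -1.65), and *sxa1* (-1.31).

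Ste11 binds the TR box (TTCTTTGTT), which was in 46.4% of the mating promoters and 1.95% of all. The sites of *mfm1* and *mfm3* lie on the opposite strand and read as the reverse complement.
mfm1: gggtccgaccAACAAAGAAgtctcagtttt
mfm3: aggcccaaccAACAAAGAAgtctcagattt
mei2: attttaaagtTTCTTTGTTttacaaaccct
ste11: aaagttgaatTTCTTTGTTtgattttcatt
Of 13 mating genes with a TR box 10 were higher and 1 lower (median 1.91). Of 15 without it 2 were higher and 1 lower (median 0.22). Across all promoters the box was in 2.58% of higher, 1.47% of lower and 1.93% of other genes.

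Meiosis and sporulation genes, 122 with a mean of at least 100 out of 146 listed, had 54 higher (44.3%) and 16 lower (13.1%). The median was 0.49, and over all protein-coding genes 17.3% were higher and 20.7% lower. Higher genes with known roles in recombination were *rec27* with 9.50, 12.6 and 8.32 against 271, 200 and 167 (4.39), *rec12*, which makes the meiotic breaks (101, 104 and 115 at 0 h, mean 1094 at 24 h, 3.35) and *rec10* (3.10). *mug14* (6.18), *mug108* (5.72), *mug147* (5.37) and *isp3*, for an outer spore wall protein (394 to 8014, 4.35), had the largest ratios with these. *spo6*, needed for the second meiotic division, was lower (151, 130 and 209 against 36.1, 33.3 and 35.4, -2.23), as were *meu18* (-3.10), *meu6* (435, 394 and 418 against 39.8, 70.7 and 54.0, -2.92) and *mug94* (328, 301 and 297 against 88.4, 86.8 and 47.5, -2.06).

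**Figure D5:**
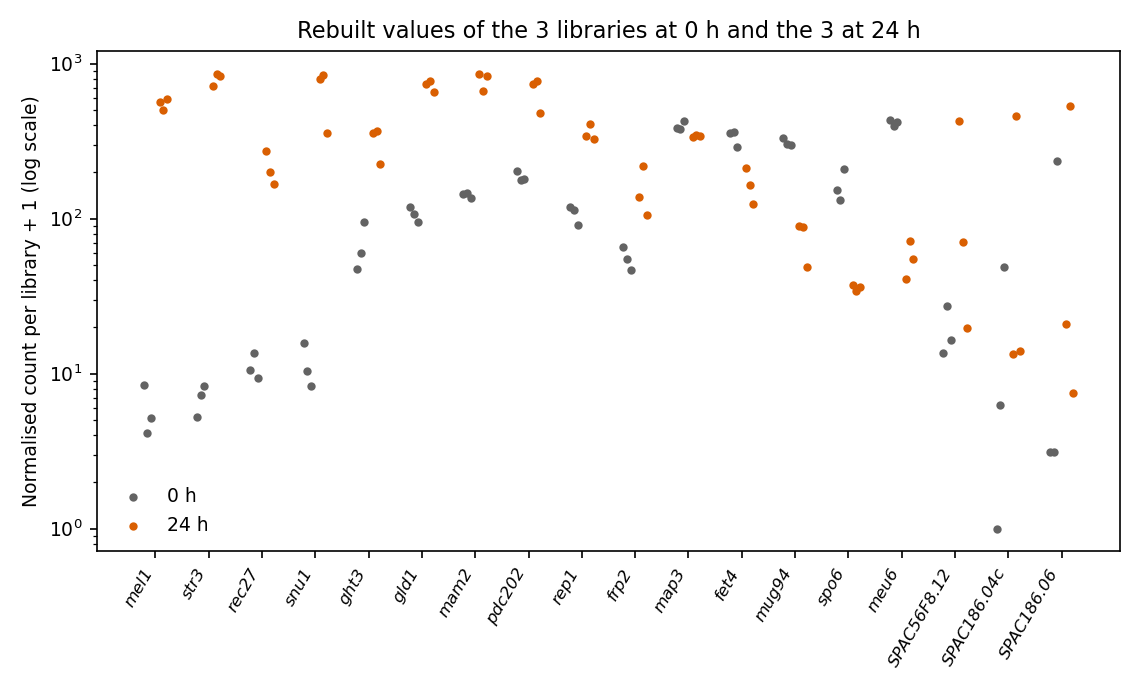
Normalised count of each library plus 1 (y axis, log scale) for 18 genes rebuilt at both times (x axis), with the 3 libraries of 0 h in grey and the 3 of 24 h in orange. For most genes the groups are well apart; for SPAC186.04c and SPAC186.06 1 library per time lies far above the others.

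Among 55 transcription factor genes 10 were higher and 5 lower (median 0.08), and the share that was higher was close to the 17.3% of all protein-coding genes. *stb3* had the widest ratio (787 to 13421, 4.09), followed by *fil1*, a GATA-type factor gene (3699 to 22170, 2.58), *mbx2* (673, 554 and 637 at 0 h, mean 3246 at 24 h, 2.38), *map1*, the MADS-box partner in mating-type expression (2.14), and *atf21* (35.9, 24.1 and 36.4 against 110, 182 and 124, 2.11). The lower ones included *grt1* (236 to 53.5, -2.14), *tos4* (-1.92), *moc3* (745, 685 and 670 at 24 h, -1.56) and *atf31* (-1.02).

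Over all protein-coding genes the largest ratio was that of SPBPB21E7.10, of no annotated function, with 3.17, 0 and 1.04 at 0 h and 714, 622 and 737 at 24 h (8.95). After *mfm1* and SPBPB2B2.06c came *hhy1*, annotated as a hydrolase (49.6, 64.0 and 49.9 at 0 h, mean 11439 at 24 h, 7.71), and *hsp3105*, a glyoxalase family gene (7.66). *fub2*, of the PI31 proteasome regulator family (27.4, 17.8 and 34.3 at 0 h, mean 3209 at 24 h, 6.92), and *mel1*, for the sugar-splitting enzyme melibiase (7.39, 3.15 and 4.16 against 564, 500 and 587, 6.81), were also among the first 15. Some genes with the largest ratios share a sequenced clone in their names, which reflects position. All 5 higher genes of the 8 on SPBPB21E7 were more than 16-fold higher, as were 4 of 8 on SPAC1F8 (*hhy1*, *shu1*, *str3* and *isp3*) and 4 of 8 on SPAC869 (*mel1*, SPAC869.09, *hry1* and *pcm2*), beside 75 of 4924 protein-coding genes. These clones were picked for holding the most such genes, so whether large ratios cluster by position was not tested. At the other end *pan5*, for a pantothenate pathway reductase, went from 2980 to 148, 178 and 55.9 (-4.55) and SPAC8E11.10, annotated as sorbose reductase, from 10638 to 661, 814 and 557 (-3.97). They were followed, after genes already named, by *srm1* for spermidine synthase (-3.20), the biotin transporter gene *vht1* (28848 to 3176, -3.18), the chitinase gene *cts2* (479, 791 and 907 at 24 h, -3.15) and *snd1* (13960 to 1748).

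Long non-coding RNAs were called higher more often than protein-coding genes were. Of 898 long non-coding RNAs, 532 were at least 2-fold higher (59.2%) and 65 lower (7.24%), and their share of the summed means went from 1.07% to 2.73%. An RNA that passed the minimum mean only at 24 h could be called higher but not lower. This favours calls of higher in a class with low 0 h means, here and in the comparison by position, and its part was not tested. SPNCRNA.1348 had 4.22, 11.5 and 7.28 at 0 h and 993, 967 and 748 at 24 h (6.88). *sme2*, the meiRNA that holds the meiotic repressor Mmi1 and Mei2 at its gene, went from 43.3, 56.7 and 36.4 to a mean of 2549 (5.81). SPNCRNA.1075 was listed at 0 at 0 h and had 630, 690 and 370 at 24 h, which is at least 537-fold higher when 3 counts over the 0 h group are taken as the floor. Of those that were lower, SPNCRNA.291 had 537, 559 and 609 against 58.5, 27.3 and 26.1 (-3.93) and SPNCRNA.1307 had 113, 122 and 125 against 11.2, 12.1 and 3.72 (-3.73).

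Position relative to coding genes was compared in the reference annotation. Of 217 long non-coding RNAs that overlap no protein-coding gene, 156 were higher (71.9%, median 1.71). Of 571 that overlap one on the opposite strand only, 323 were higher (56.6%, median 1.20). A coding partner that was itself higher was present for 78 of these 323, beside 17.3% of all protein-coding genes called higher. Of 110 that overlap one on the same strand, 53 were higher (48.2%), 18 of them with a higher coding partner. Partners of the RNAs not called higher were not counted, so no link between an RNA and its partner was tested. Whether reads were counted by strand is not stated, so reads of overlapping genes may not be separated.

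Small stable RNAs, whose mature forms usually have no poly(A) tail, were higher in these poly(A)+ libraries too. Of 27 small nucleolar RNAs in the annotation's class, 20 were higher (74.1%) and 1 lower (3.7%), and all 4 spliceosomal RNAs that passed the minimum were higher. The U1 RNA *snu1* had 14.8, 9.45 and 7.28 at 0 h and 795, 838 and 355 at 24 h (5.98). The U5 RNA *snu5* had 14.8, 9.45 and 10.4 against 668, 424 and 128 (5.14). The U3 RNA *snu3*, which guides ribosomal RNA processing, went from 114, 89.2 and 102 to a mean of 3488 (5.10), while the genes *utp4* (-2.32) and *nan1* (-2.08), for proteins of its particle, were lower. SPBTRNAALA.07, a transfer RNA gene, was listed at 0 at 0 h and had 199, 194 and 163 at 24 h, at least 177-fold higher by the same floor. These classes and the long non-coding RNAs moved in the same direction between the groups. The parts of poly(A) selection and of the minimum mean in either were not tested.

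Some values rest on single libraries. SPAC186.04c had 0, 5.25 and 47.8 at 0 h and 12.4, 458 and 13.0 at 24 h, and SPAC186.06 had 2.11, 2.1 and 235 against 19.9, 531 and 6.52, so in both genes the groups overlap and the same 2 libraries were highest. SPAC56F8.12 had 427, 69.7 and 18.6 at 24 h. At the edge of the minimum, SPNCRNA.554 (12.6 to 100.2, higher) and SPNCRNA.477 (69.2 to 100.2, neither) were just inside, and SPNCRNA.734 (41.3 to 99.9) and SPNCRNA.1117 (86.7 to 99.3) just outside. Leaving out each library in turn moved the count of higher rebuilt genes from 644 to between 596 and 667. The count of lower ones moved from 110 to between 103 and 111.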

How the data were processed

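Poly(A)+ RNA of 3 cultures per time was sequenced from a stranded library kit. Reads were aligned, according to the study's methods and the submitters' processing notes, with HISAT2 2.1.0 to ASM294v2, handled with SAMtools, counted over exons with HTSeq 0.10.0 and normalised with DESeq2. Whether counting used strand is not stated in the sources used here. The deposited values are a signal: the authors' mean normalised count per gene and time, 1 column for 0 h and 1 for the starved time in each table, with no column per library. The tables also hold the authors' own fold changes, standard errors and p-values, which were not used.

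The log2 ratio of the authors' means (24 h over 0 h, no pseudocount) was computed with Python 3.11.15, pandas 2.3.3 and NumPy 2.4.6. A gene entered with a mean of at least 100 at either time and was called at a 2-fold difference. With means only, no test was run. Library values were rebuilt for means under 1000 where a single set of 3 whole read counts gave the deposited mean, first without a limit and, where several sets did, with the 3 libraries assumed to lie within 2-fold of each other, which understates the spread of those genes. The steps that rebuild reads and find motifs were tested on simulated data. The simulated libraries rarely spread beyond the 2-fold limit, so the rebuilding test says little about genes whose libraries do. Intervals are not given, and depth limits low means most.

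Names, products and promoters come from RefSeq ASM294v3, another build than the authors', by gene identifier: 6836 genes matched by locus tag, 12 by synonym and 140 not at all. Motifs were searched on both strands, and the Pho7 site in 4 spelled forms. Named genes are all members of the PHO regulon, its RNAs, the deleted genes and glycolysis, the 4 largest increases and decreases of each other list, the 15 protein-coding and 6 non-coding genes with the largest ratios each way, paralogues called in opposite directions and the genes at the limit. Some genes that this rule names are not reported here. Further genes of a list, the small nuclear and nucleolar RNAs and the genes with an outlying library were chosen after their values were seen. The genes and the 39 lists were chosen with earlier results of these data known, and wrongly assigned list members were removed by product name afterwards. Alternatives tried were other scalings, minimums, folds, a pseudocount of 10, single libraries left out and a window without the bases after the start.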

Additional observations from a re-analysis of the deposited data

How the results depend on the processing

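The count of genes at least 2-fold higher (1433) was 660 at a 4-fold limit and 785 with a minimum mean of 1000, and that of protein-coding genes (853) was 335 at 4-fold. The count of lower genes (1088) was 676 with equal summed means, 1851 at 1.5-fold and 136 at 4-fold, and that of protein-coding genes (1019) was 623, 1745 and 110. Under both other scalings the balance of protein-coding calls turned, from 853 higher and 1019 lower to 1031 and 715 (centred on the median gene) or 1095 and 623 (equal summed means). With equal summed means, lower genes in the lists went from 12 to 7 for S phase, 15 to 9 for tRNA modification, 7 to 4 for the chaperonin and prefoldin, 5 to 3 for RNA polymerase III, 4 to 2 for uracil and 5 to 2 for the TCA cycle. Under both other scalings mitochondrial ribosome genes went from 7 lower and 2 higher to 1 and 5, and vacuolar ATPase genes from 2 to 5 higher. Taking only the 250 bases before the start moved 17 of 48 motif shares beyond their counting interval. Leaving out single libraries was chosen for the counts after the data were seen. Recounted in this way, 596 to 667 rebuilt genes were past 2-fold upward (644 with all 6) and 103 to 111 downward (110). Depth limits the low means, where a few reads set the ratio. No paired analysis was possible because the deposited columns are means over the libraries and the rebuilt libraries carry no replicate number.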
